A study of Mus musculus with 4 samples.

Results

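The regions described here are the HTATSF1 peaks on the proximal part of mouse chromosome 7, next to the centromere. They are the peaks of each deposited list that lie on chromosome 7 and end at or before 36 Mb in mm9. The rule uses position only. It found 536 of the 19489 peaks of replicate 1 and 373 of the 14118 peaks of replicate 2. The rest of chromosome 7 held 973 and 670 peaks. Nearest to the limit, the last peak inside was at 35970410 to 35970719 in replicate 1 (score 81.9) and at 35971129 to 35971414 in replicate 2 (score 76.3). Just outside it, both lists had a peak that overlapped one of the other list, beginning at 36000210 (score 139.2) and at 36000228 (score 123.9).

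The peaks come from chromatin immunoprecipitation followed by sequencing (ChIP-seq), in which crosslinked chromatin is pulled down with an antibody and the DNA that comes with it is sequenced. The cells were mouse embryonic stem cells from mice with both tatsf1 alleles floxed and a CreERT2 transgene, a Cre recombinase that acts only when an oestrogen receptor ligand is given. They grew on mouse embryonic fibroblast feeders and received no treatment. There were 2 libraries made with a rabbit antibody against a mouse HTATSF1 peptide and 2 input libraries without antibody. All 4 share the same genotype and culture conditions, and no library from cells lacking HTATSF1 was analysed here. The input libraries entered no comparison. Separate cultures are not named in the labels, so differences between the lists may be technical.

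HTATSF1, first described as a host factor for the HIV Tat protein, is an RNA-binding protein of the nucleus. It is known to bind a core protein of the U2 small nuclear ribonucleoprotein, which recognises the branch point of introns during splicing. RNA-binding proteins can reach chromatin through RNA being transcribed or through other proteins, so a ChIP-seq peak marks where the protein was crosslinked near DNA and need not be a DNA motif that it reads. Mouse chromosome 7 carries compact groups of broadly expressed genes as well as long tandem arrays of receptor genes that most cells keep silent. In the RefSeq table of the GRCm38 build it has 2030 protein-coding genes. Among them are 178 vomeronasal receptor genes, which serve pheromone sensing, with up to 16 next to one another. It also has 239 olfactory receptor genes, 103 zinc finger genes of the symbols searched, 28 Ceacam and Psg genes (cell adhesion and placental glycoproteins), 26 kallikrein genes in 1 unbroken row and 15 Cyp2 genes. Splicing genes (9 of the symbols searched, among them U2af2, Snrnp70 and Hnrnpl) are on the same chromosome. That table is of another build than the peaks, so only its gene order was used, not its coordinates. Among the first 25% of the chromosome's genes in that order were 153 of the 178 vomeronasal receptor genes, 27 of the 28 Ceacam and Psg genes and 48 of the 103 zinc finger genes. They included 8 olfactory receptor genes, 0 kallikrein genes and 0 Cyp2 genes. Where the first 36 Mb of mm9 ends in this order was not determined here. These counts are therefore not counts for the stretch, and a family counted as 0 may still lie in it. Which genes lie at a peak was not determined either, and no sequence is shown.

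Proximal chromosome 7 carried more HTATSF1 peaks per length than the rest of the chromosome, in both libraries and by nearly the same factor. Replicate 1 had 14.9 peaks per Mb in the first 36 Mb and 8.35 per Mb from there to the last peak of the chromosome. Replicate 2 had 10.4 and 5.75 per Mb. The ratio was 1.78 in replicate 1 (exact 95% interval 1.60 to 1.98) and 1.80 in replicate 2 (1.58 to 2.05), a mean of 1.79. The stretch makes up 23.6% of the chromosome and held 35.5% of its peaks in replicate 1 and 35.8% in replicate 2. Over all chromosomes up to their last peaks, the lists had 7.39 and 5.36 peaks per Mb. These intervals cover counting error only. Peaks lie in clusters and are not independent, and with 1 group of 2 libraries no test over samples was possible.

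Within the 36 Mb the peaks were packed into a minority of windows. Of 36 windows of 1 Mb, with peaks assigned by their midpoint, 13 held no peak in either list and 12 were peak-rich, meaning at least 2 times the mean of chromosome 7 in each list (19.8 peaks in replicate 1 and 13.7 in replicate 2). The 12 rich windows held 468 of 536 peaks in replicate 1 (87.3%) and 311 of 373 in replicate 2 (83.4%). Only 11 windows lay between these extremes, and 8 of them had at most 5 peaks in each list. In the remainder of the chromosome both kinds were a smaller part: of its 117 windows, 21 (17.9%) were empty, 9 (7.69%) were rich by the same rule, and the rich ones held 37.7% and 39.0% of its peaks. In the first 36 Mb the rich windows were 33.3% and the empty ones 36.1%. The first 3 of these empty windows lie before the first peak, and without them 10 of 33 (30.3%) were empty. The median window was nonetheless alike in both parts, with 4 peaks in replicate 1 and 3 in replicate 2.

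**Figure D1:**
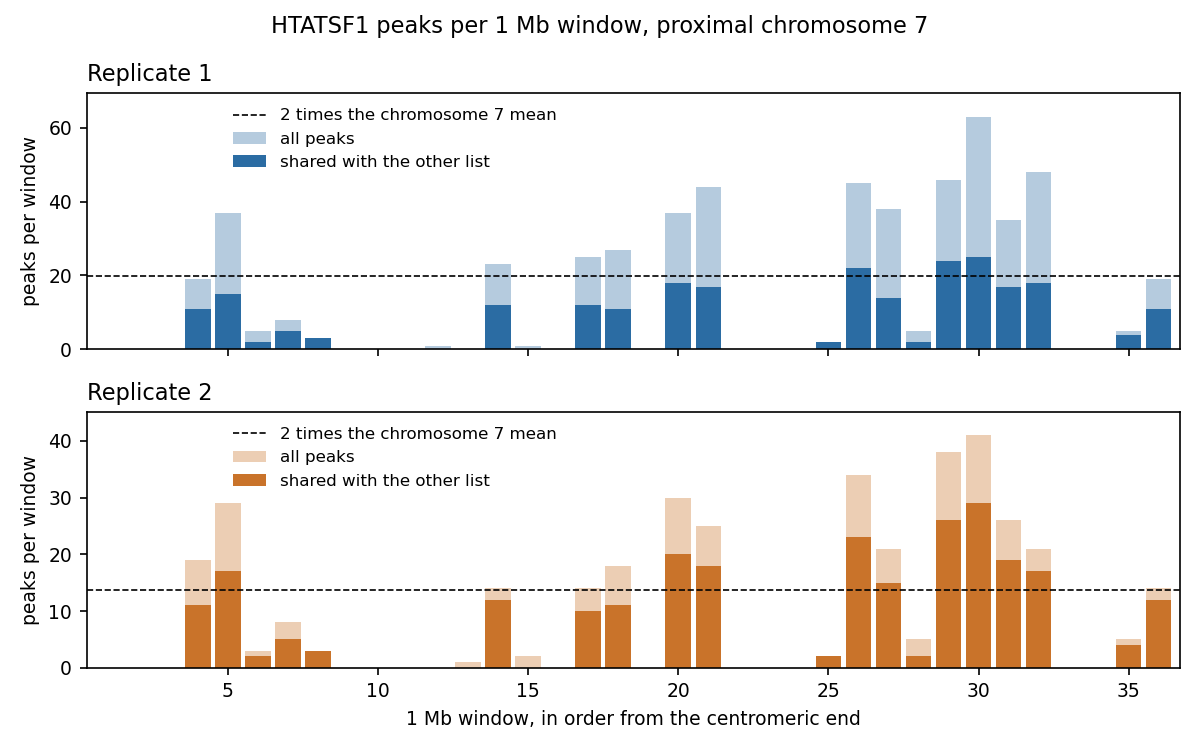
Peaks per 1 Mb window in order along the first 36 Mb, for replicate 1 (top) and replicate 2 (bottom). Pale bars are all peaks, dark bars the peaks that overlap one of the other list, and the dashed line is 2 times the chromosome 7 mean (19.8 and 13.7). The same 12 windows reach the line in both lists, windows 4 and 36 reach it in replicate 2 alone with 19 and 14 peaks, and 13 windows hold no peak in either.

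Of the 5 windows of the stretch with the highest mean count, the first was from 29 to 30 Mb. It held 63 peaks in replicate 1 and 41 in replicate 2. Next came the window before it, with 46 and 38 peaks, and the window from 25 to 26 Mb, with 45 and 34. The windows that begin at 31 Mb and 20 Mb tied with a mean of 34.5, at 48 and 21 peaks and at 44 and 25 peaks. The fullest window of chromosome 7 lay outside the stretch, at 52000001 to 53000000, with 90 and 55 peaks. Another outside it, at 134000001 to 135000000, held 63 and 44. Replicate 1 had more peaks in each of the 12 rich windows, by a factor of 1.21 to 2.29 with a median of 1.52. The ratio of the list sizes was 1.44 in the first 36 Mb and 1.38 overall. The window from 31 to 32 Mb had the most unequal counts of the 12. Across the 36 windows the counts of both lists had a Spearman correlation of 0.97, and across the 23 windows with any peak it was 0.95. These describe neighbouring stretches of 1 chromosome in 2 libraries and carry no test.

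Peakless stretches divided the region into blocks. Where no peak of either list lay for at least 500 kb, the stretch was counted as a gap, a length chosen after the counts had been seen. There were 14 such gaps between peaks, with a total of 20.2 Mb, beside the 3.19 Mb before the first peak. Mouse chromosomes begin with an unsequenced centromeric gap in the assembly, so the lack of peaks at the very start is not a measurement of HTATSF1. The longest gap ran from 7252655 to 11080750 (3.83 Mb). It was followed in length by 20538724 to 24255262 (3.72 Mb) and by 31953725 to 34328588 (2.37 Mb). Gaps of this size were not particular to the stretch: they took up 56.0% of its length and 53.8% of the rest of chromosome 7, where 51 gaps reached up to 7.50 Mb. The 56.0% is of all 36 Mb, which include the 3.19 Mb before the first peak although these were not counted as a gap.

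Between the gaps lay 15 blocks, of which 7 had at least 10 peaks in each list. These 7 blocks covered 11.97 Mb (33.3% of the stretch, the part before its first peak included). They held 522 replicate 1 peaks (97.4%) and 357 replicate 2 peaks (95.7%). The same rule on the rest of the chromosome gave 16 blocks that covered a similar part of the length, 34.3%, and held 84.0% and 84.6% of the peaks. What differed was the mean packing inside. In replicate 1 it was 43.6 peaks per Mb in the blocks of the first 36 Mb against 20.5 in those of the rest. In replicate 2 it was 29.8 against 14.2. Single windows of 1 Mb were not fuller in the stretch: they held up to 63 and 41 peaks there, and up to 90 and 55 in the rest. The other 8 blocks of the first 36 Mb were small groups of up to 8 peaks per list, and 7 of them held 3 peaks or fewer in each.

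The first peak-rich block, at 3192006 to 5031993, held 61 and 51 peaks and was the one with the most equal counts. The second, at 13063400 to 14118479, held 23 and 15 peaks and was the least dense, at 21.8 and 14.2 per Mb. The third, at 16507529 to 17647799, held 52 and 32 peaks. The fourth, at 19335185 to 20538723, was the most dense in both lists: its 81 and 55 peaks came to 67.3 and 45.7 per Mb. The fifth, at 24959921 to 26601821, held 84 and 56 peaks. The sixth was the longest of the 7, 4.04 Mb from 27916032 to 31953724, and with 197 and 130 peaks it held 36.8% and 34.9% of all peaks of the stretch. The last, at 34917851 to 35971414, held 24 and 18 peaks. It was cut by the limit of the stretch and not by a gap, as the next peaks began at 36000210 and 36000228. Its length, counts and sharing therefore describe only the part inside the stretch.

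**Figure D2:**
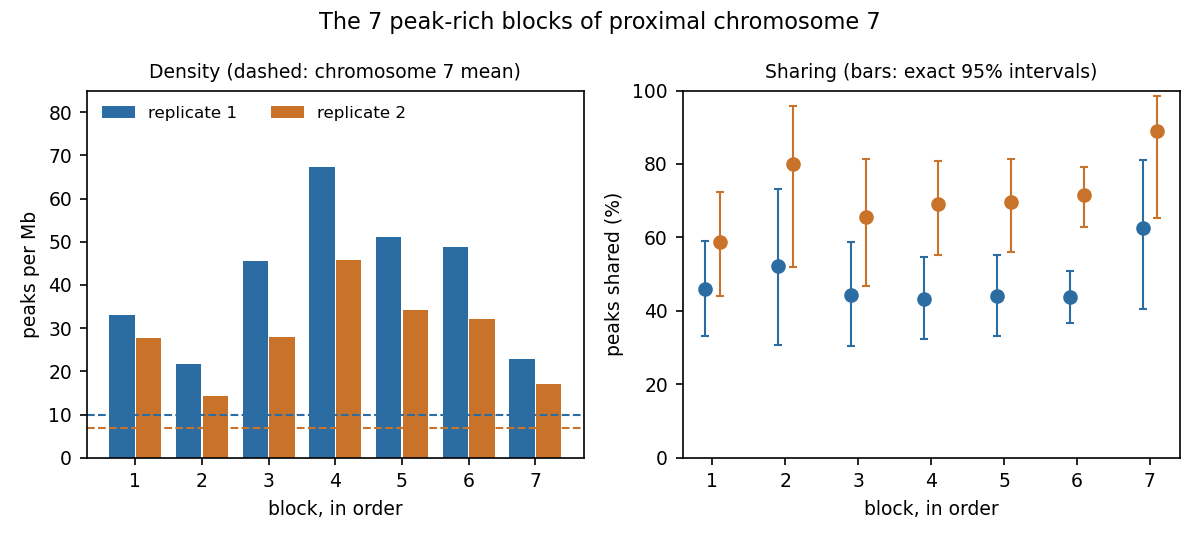
Left, peaks per Mb in each of the 7 blocks with at least 10 peaks in both lists, in order along the chromosome, with the chromosome 7 mean of each list (9.89 and 6.84) dashed. Right, the percentage of each block's peaks shared with the other list, with exact 95% binomial intervals. Every block lies above its dashed line in both lists. This follows in large part from how blocks were drawn, since they leave out gaps of at least 500 kb and the mean includes them. The intervals of sharing of all 7 blocks overlap within each list.

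On a finer scale, 118 of the 360 windows of 100 kb held a replicate 1 peak and 114 a replicate 2 peak. Both lists marked 105 of them and neither marked 233. Windows marked in 1 list alone held little: 13 windows with 15 peaks in replicate 1 and 9 windows with 9 peaks in replicate 2. Of these windows 49 had 5 or more replicate 1 peaks, 30 had as many replicate 2 peaks, and 25 did so in both lists. After the window at 28100001 to 28200000 (17 and 11 peaks), the highest mean counts were at 26000001 to 26100000 (16 and 9 peaks, 7 shared in each list) and at 19800001 to 19900000 (12 and 9 peaks, 6 and 7 shared). Successive peaks of a list were a median of 11.3 kb apart in replicate 1 and 17.0 kb in replicate 2, against 24.1 and 38.2 kb in the rest of chromosome 7. Close spacing below 1 kb was about as common in both parts: 17.0% of the gaps against 16.2% in replicate 1, and 11.0% against 10.5% in replicate 2. The parts differed more in spacings of several kb: under 10 kb were 46.7% of the gaps against 34.3% in replicate 1, and 35.2% against 24.4% in replicate 2.

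Single peaks were nearly as narrow as elsewhere. Median widths were 416 and 297 bp in the first 36 Mb, against 392 and 279 bp in the rest of chromosome 7. In all they covered 246.3 kb and 118.7 kb, which is 0.684% and 0.330% of the 36 Mb. The bases in both lists came to 79.1 kb, or 32.1% of the bases of replicate 1 and 66.7% of those of replicate 2. Score went with width: across the peaks of the stretch their Spearman correlation was 0.77 for replicate 1 and 0.66 for replicate 2.

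A peak was called shared when at least 1 bp of it lay in a peak of the other library. In the first 36 Mb, 245 replicate 1 peaks were shared (45.7%, exact 95% binomial interval 41.4 to 50.0%), beside 45.6% of the whole list. In replicate 2, 258 were shared (69.2%, 64.2 to 73.8%), beside 65.2% of the whole list. The rest of chromosome 7 had 45.2% (42.1 to 48.4%) and 66.1% (62.4 to 69.7%), and these intervals overlap those of the first 36 Mb. The shares depend on the overlap asked for: with at least 50% of both peaks covered they were 28.9% and 41.6%. Of the shared replicate 1 peaks, 224 overlapped a single replicate 2 peak and 21 overlapped more than one. Midpoints of the 245 pairs were a median of 80.5 bp apart, and 144 pairs lay within 100 bp. In 114 pairs the whole replicate 2 peak lay inside the wider replicate 1 peak.

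Sharing varied among the blocks, but the intervals overlapped within each list, which does not show that the shares were alike. From the first block to the last it was 45.9%, 52.2%, 44.2%, 43.2%, 44.0%, 43.7% and 62.5% in replicate 1. In replicate 2 it was 58.8%, 80.0%, 65.6%, 69.1%, 69.6%, 71.5% and 88.9%. The last block, with 15 of 24 and 16 of 18 peaks shared, had the highest share in both lists, but its intervals (40.6 to 81.2% and 65.3 to 98.6%) overlap those of every other block. Peaks in the 12 rich windows were shared in 43.8% (39.3 to 48.4%) of cases in replicate 1 and 69.8% (64.3 to 74.8%) in replicate 2. In the other occupied windows the shares were 58.8% (46.2 to 70.6%) of 68 peaks and 66.1% (53.0 to 77.7%) of 62 peaks. In replicate 1 the rest of the chromosome had the opposite order, with 51.0% (45.7 to 56.2%) in its rich windows and 41.7% (37.8 to 45.8%) in the others, and in replicate 2 it had 71.3% (65.4 to 76.7%) and 62.8% (58.0 to 67.5%). The windows were sorted by their counts in both lists, which bears on overlap, so this is a description. The small block at 7230707 to 7252654 had 3 peaks in each list and all were shared.

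Scores are the authors' own value per peak. What they measure is not stated, so they were compared only within a list or as ranks, where a percentile of 100 is the highest score of the list. Peaks of the first 36 Mb were of middling rank. Their median score was 87.6 in replicate 1 (quartiles 65.6 and 130.8) and 75.9 in replicate 2 (59.7 and 96.6). The median percentile was 49.5 and 53.6, with 49.8 and 50.7 in the rest of the chromosome. Among the 1000 highest scores of each whole list were 18 replicate 1 peaks (3.36%, interval 2.002 to 5.26%), beside 5.13% of the whole list, and 14 replicate 2 peaks (3.75%, 2.07 to 6.22%), beside 7.08%. The whole-list share was inside the interval in replicate 1 and above it in replicate 2. With the highest 10% of each list in place of the highest 1000 this was the other way round: the shares were 7.28% (5.22 to 9.81%) in replicate 1 and 7.24% (4.82 to 10.4%) in replicate 2. In the rest of the chromosome the shares among the highest 1000 were 3.80% (2.69 to 5.20%) and 6.27% (4.55 to 8.38%). Median percentiles of the 12 rich windows spanned 35.9 to 59.4 in replicate 1 and 36.1 to 63.4 in replicate 2. Their order was not the same in both lists (Spearman correlation -0.33 over 12 windows, a description). The window from 29 to 30 Mb, with the most peaks, had the lowest median percentile of the 12 in replicate 1 (35.9), while in replicate 2 it was 53.1.

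Sharing rose with score here much as it did elsewhere. With each whole list split into 5 equal parts by score, replicate 1 peaks of the first 36 Mb were shared in 21.9%, 30.8%, 42.2%, 59.3% and 78.0% of cases from the lowest part to the highest. In the rest of the chromosome the values were 24.0%, 27.7%, 36.6%, 61.7% and 79.2%. In replicate 2 the first 36 Mb had 54.0%, 55.6%, 65.5%, 80.0% and 89.4%, against 32.8%, 60.4%, 67.2%, 76.7% and 92.7%. The widest separation was in the lowest part of replicate 2, with 34 of 63 peaks shared (interval 40.9 to 66.6%) against 41 of 125 (24.7 to 41.8%). The share of this part over the whole list, 40.3%, lay just below the interval of the first 36 Mb. This separation was 1 of 10 such comparisons, singled out after its value was seen. The intervals of the first 36 Mb and the rest of the chromosome overlapped in all 10, here only narrowly. Of the 50 highest-scored peaks of the stretch, 42 were shared in replicate 1 and 45 in replicate 2. Of the 10 highest, all were shared in both lists. The same counts were not made for the rest of the chromosome. In the highest of the 5 parts, 79.5% of the whole replicate 1 list and 92.9% of the whole replicate 2 list were shared.

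**Figure D3:**
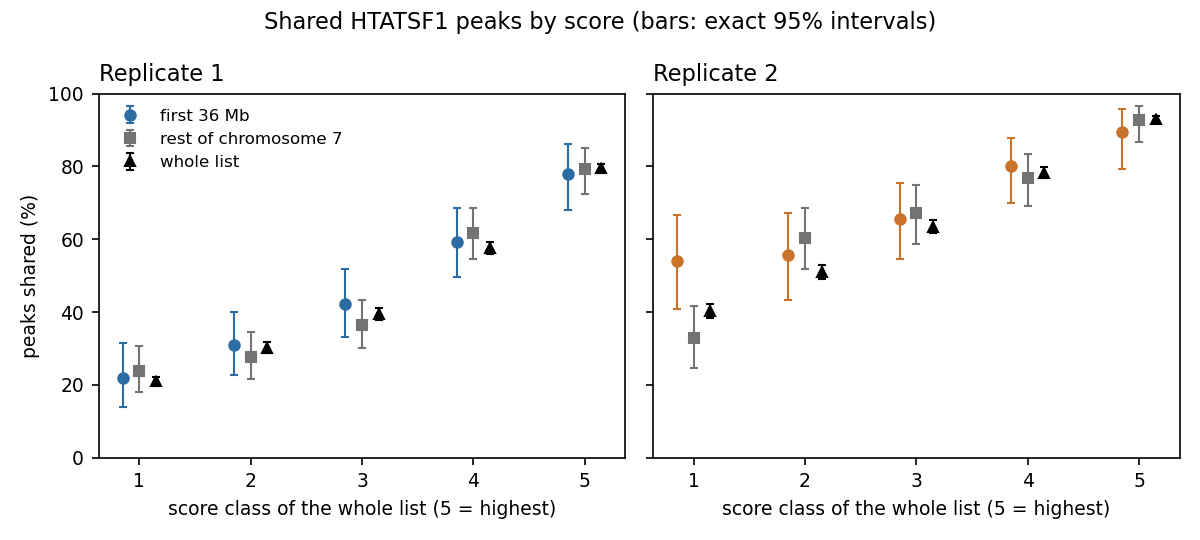
Percentage of peaks shared with the other list, in 5 score classes of equal size in the whole list (5 is the highest), for replicate 1 (left) and replicate 2 (right). Circles are the first 36 Mb, squares the rest of chromosome 7 and triangles the whole list, with exact 95% binomial intervals. Sharing climbs from 21.9% to 78.0% and from 54.0% to 89.4% in the first 36 Mb, and its intervals overlap those of the rest of the chromosome in all 5 classes of both lists.

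The order of scores recurred only in part. Each of the 245 shared replicate 1 peaks was paired with the overlapping replicate 2 peak of highest score, and the scores of the pairs had a Spearman correlation of 0.34. In the rest of chromosome 7 it was 0.28 and over the whole list 0.37. These correlations run across peaks of the same 2 libraries, and the pairs used 239 different replicate 2 peaks. The percentiles of a pair differed by a median of 17.7 points, and by over 50 points in 27 pairs. Both partners were among the 1000 highest of their lists in 6 pairs. Of the 10 highest-scored replicate 1 peaks of the stretch, 4 overlapped one of the 10 highest of replicate 2, and for the 50 highest the number was 18.

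**Figure D4:**
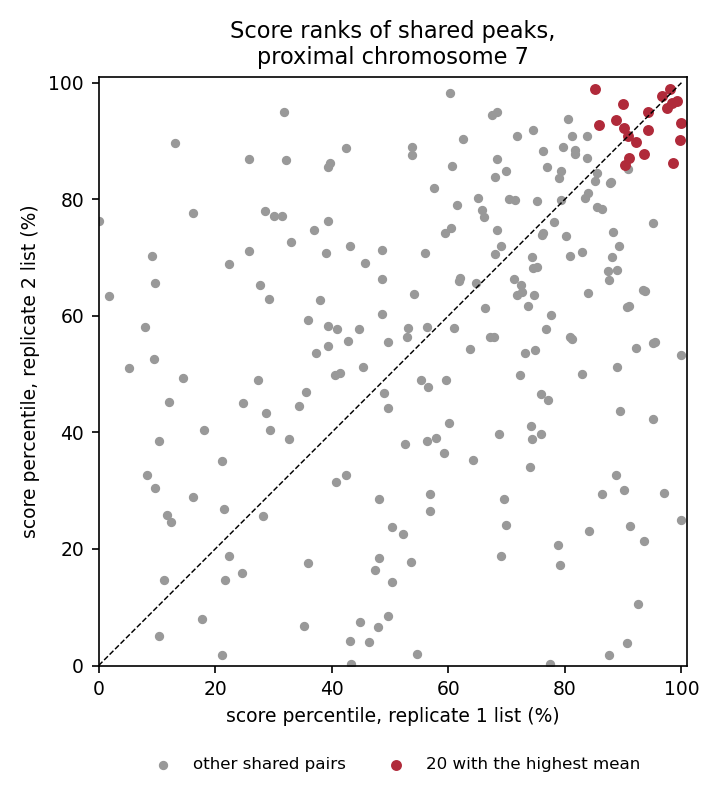
Score percentile in the replicate 1 list (x axis, %) against that of its highest-scored partner in the replicate 2 list (y axis, %) for the 245 shared peaks of the first 36 Mb. Red points are the 20 pairs with the highest mean percentile and the dashed line marks equal percentiles. Points fill most of the plane, with 27 pairs over 50 points apart.

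The strongest shared regions were taken as the 20 with the highest mean percentile over both lists, which ranged from 88.1 to 98.5. The pair just below the limit had 88.0. They lay in 13 of the 36 windows, 15 of them in rich windows. Those windows held 87.3% of all replicate 1 and 83.4% of all replicate 2 peaks of the stretch. Median widths were 774 and 547 bp, and their midpoints were 1.5 to 263.5 bp apart. Since score chose them and score goes with width, the widths are a description. In 12 of the 20 the replicate 1 percentile was the higher one, as it was in 130 of all 245 pairs.

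The first region was at 25184233 to 25185018 in replicate 1, with a score of 327.4 (rank 388 of the list), and at 25184321 to 25185135 in replicate 2, with a score of 268.7 (rank 150). This was the highest-scored replicate 2 peak of the stretch, and the nearest other replicate 1 peak was 21.6 kb away. The second region, at 13623103 to 13624132, scored 402.2 (rank 140) and 208.2 (rank 454). Its replicate 2 peak, 564 bp wide, lay wholly inside the replicate 1 peak, 1030 bp wide. Another region, at 13488841 to 13489398, the 11th of the 20, scored 347.1 and 131.3, and its midpoints were 1.5 bp apart. Both belong to the block at 13063400 to 14118479, the least dense of the 7.

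The third region, at 20250089 to 20250934, scored 339.6 and 202.4. It shared its window with the 14th and the 20th, at 20283949 to 20284885 (scores 207.5 and 160.9) and 20335403 to 20335955 (208.9 and 130.2), all in the most dense block. The fourth, at 28376517 to 28377278, scored 286.9 and 225.8, and the fifth, at 35355307 to 35356263, scored 310.3 and 192.0. The sixth, at 31373612 to 31374552, had one of the highest ranks of the whole replicate 1 list (score 514.7, rank 25), while its replicate 2 score of 169.1 had rank 965. The seventh, at 17509197 to 17510191, was alike in this, with 468.1 (rank 58) and 148.1 (rank 1400). The eighth, at 16984831 to 16985775, scored 248.3 and 185.0. Its replicate 2 peak also overlapped a second replicate 1 peak that began 5 bp further on and scored 69.4.

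Peaks of the small block at 7230707 to 7252654, which lies alone before the longest gap, were among the 20 as well. Its first peak, at 7230707 to 7231284, scored 247.2 and 158.7, and another, at 7252102 to 7252654, scored 198.5 and 172.6. The median percentile of its 3 peaks was 88.8 in replicate 1 and 91.9 in replicate 2. High rank was thus found also outside the dense blocks. The region at 6362768 to 6363218, with scores of 181.4 and 164.6, lay in another small block of 8 peaks per list.

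Several regions were among the highest of 1 list and of middling or low rank in the other. The highest replicate 1 score of the stretch was 522.0, at 4703238 to 4705040 (rank 21). With 1803 bp it was the widest peak of the stretch. Its best partner in replicate 2 scored 75.4 (rank 6600). The next, at 16894606 to 16895780, scored 515.0 in replicate 1 (rank 24) and 58.2 in replicate 2 (rank 10588 of 14118). In the other direction, the replicate 2 peak over the replicate 1 peak at 31514215 scored 238.0 (rank 251), where replicate 1 had 104.3 (rank 7725). These pairs were chosen for their difference, which was not tested. The replicate 2 peak with the second highest score of the stretch, 268.3 (rank 154) at 25689070 to 25689599, was not of this kind. It overlapped a replicate 1 peak with a score of 177.5 (rank 2882), and the pair was the 12th of the 20 strongest shared regions. Its percentiles were 85.2 in replicate 1 and 98.9 in replicate 2. The median difference over all 245 pairs was 17.7 points.

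Most unshared peaks lay within 10 kb of some peak of the other list, shared or not. Of the 291 unshared replicate 1 peaks, 61 had a replicate 2 peak within 1 kb and 171 (58.8%) within 10 kb. Of the 115 unshared replicate 2 peaks, 24 had a replicate 1 peak within 1 kb and 75 (65.2%) within 10 kb. Peaks of the stretch lie close together, with 46.7% and 35.2% of the gaps within a list under 10 kb. The nearness of unshared peaks was not computed for the rest of chromosome 7, so these shares are a description. Their median scores were 74.9 and 63.8, against 116.2 and 80.3 for the shared peaks. Of the peaks of the stretch among the 1000 highest of their list, 3 of 18 were unshared in replicate 1 and 0 of 14 in replicate 2. The highest unshared peak of replicate 1, at 29123233 to 29124067 with a score of 275.2, had a replicate 2 peak 0.546 kb away. After it came 29221446 to 29222703 (269.2, the nearest replicate 2 peak 14.0 kb away), 4088349 to 4089140 (255.5, 12.2 kb), 30303338 to 30304298 (216.1, 86.6 kb) and 4959653 to 4960461 (206.3, 5.26 kb). In replicate 2 the highest, at 30135431 to 30135802, scored 158.3 and lay 32.4 kb from the nearest replicate 1 peak. The other 4 began at 28087198 (150.4, 6.20 kb), 4461481 (149.6, 7.80 kb), 19413913 (132.6, 11.6 kb) and 25668886 (131.2, 0.219 kb). All 10 lay in peak-rich windows, which held 87.3% of all replicate 1 and 83.4% of all replicate 2 peaks of the stretch. The depth of the libraries is unknown, so an unshared peak cannot be read as a region left unbound in the other library.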

How the data were processed

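The peak lists of the 2 HTATSF1 ChIP libraries were used, with groups and replicate numbers from the sample titles. The authors deposited 1 list per library, not one from pooled libraries. The submitters' processing notes name the mm9 build, Bowtie, Picard 1.82 and bedtools. How each was used, and with which threshold and control peaks were called, is not given in the sources used here. Per the labels' protocols, reads were single-end of 50 bp. Peak names begin with MACS. No value of the deposited score is under 50, and its unit is not stated. A list cut at a score shows only peaks past that limit, so the counts move with depth.

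Positions are printed counted from 1. Widths are end minus start as deposited. Overlaps, windows, gaps, percentiles over the whole list and exact (Clopper-Pearson) 95% intervals were computed with Python 3.11.15, numpy 2.4.6, pandas 2.3.3 and scipy 1.17.1, figures with matplotlib 3.10.9. The overlap code was tested on simulated lists. The density interval comes from the binomial split of the chromosome's peaks. Named regions of the stretch are the 20 shared peaks of highest mean percentile, the 5 highest unshared peaks of each list and the 5 windows with the highest mean count. The members and lists were chosen with earlier results of these data known. Planned promoter shares and gene groups at peaks were not run, since the gene table used is of the GRCm38 build.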

Additional observations from a re-analysis of the deposited data

How the results depend on the processing

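Of 30 alternative values, 24 stayed within the 95% interval of the main value, within the spread of both lists or, for counts, within 1.5 times. The other 6 were all shares of shared peaks. With an overlap of 50% or more of each peak required, 28.9% of replicate 1 and 41.6% of replicate 2 peaks were shared. With a peak of the other list within 1 kb counted as shared, the values were 57.1% and 75.6%. Merging peaks under 1 kb apart gave 50.6% in replicate 1. The upper 50% of each list by score gave 62.2% in replicate 2, where fewer partners were left. The density ratio lay between 1.75 (limit at 35 Mb, replicate 1) and 1.98 (length counted from the first peak, replicate 2). Without replicate 1 or without replicate 2, the mean density ratio was 1.80 or 1.78, and the mean of the median percentiles 53.6 or 49.5. Empty windows numbered 10 to 16 and rich windows 9 to 12 under the alternatives. The 1 kb distance and the length from the first peak were added after the data were seen. Leaving out a replicate gives no share of shared peaks, which needs both lists. No paired analysis was possible because replicate numbers are shared only with input libraries, whose values were not used here. The planned promoter result and its alternative were not run. Depth is unknown and limits what an unshared peak or an empty window can show.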
